A study of Mus musculus with 18 samples.

Results

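The subject was a group of 10 genes among the 35275 of the expression table: Nfe2l2, which encodes the transcription factor Nrf2, its inhibitor Keap1, and 8 genes known as Nrf2 targets, namely Nqo1, Hmox1, Gclc, Gclm, Txnrd1, Srxn1, Slc7a11 and Gsr. They were listed by name as textbook genes of the pathway, with no measured value in the rule, but earlier results of these data were known when they were chosen. All 10 were found and passed the filter on low values. RNA-seq libraries came from C2C12, a mouse myoblast line that can fuse into myotubes when serum is lowered, and the labels give a PAX7-negative stock for every group. The study asked how MUNC, a long noncoding RNA from upstream of Myod1, acts on muscle differentiation. Its 6 groups were Control cells, labelled wild-type, cells overexpressing the spliced form (MUNC spliced) and cells overexpressing the genomic, unspliced form (MUNC genomic), each in growth medium with 20% fetal bovine serum at subconfluence (GM) and after 3 days in 2% horse serum (DM3), with 3 biological replicates each. Whether a MUNC line was 1 clone or a pool, and what drives MUNC in it, are not given in the sources used here, and the level of MUNC was not analysed here.

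Nrf2 is held low by Keap1, an adaptor that hands it to a Cul3 ubiquitin ligase for degradation. Oxidants and electrophiles modify cysteines of Keap1, Nrf2 escapes, pairs with a small Maf protein and binds antioxidant response elements near its targets, while Bach1 competes for these elements as a repressor. The target enzymes import cystine, make and recycle glutathione, keep thioredoxin and peroxiredoxins reduced, and clear quinones and heme. Because Nrf2 is controlled mainly as a protein, the level of Nfe2l2 mRNA is not a measure of its activity. In muscle cells the pathway is known as a defence against the oxidants formed during respiration and contraction.

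Upstream sequences are shown for 3 members in which the core of the antioxidant response element, TGACNNNGC on either strand, lay before the annotated start, so that a reader can see the letters. RefSeq promoter entries on GRCm38.p6, covering 250 bases before to 50 bases after a start, were found for 7 of the 10 genes and not used for Hmox1, Gclc and Gsr. The core was present in the windows of 4 of these 7 genes, and in 3781 of 27025 genes of the same table (14.0%). Each line is the 250 bases before the start, 5′ to 3′ on the gene's strand, with the match in capitals.
Nfe2l2, chr2:75704664-75704913, minus strand: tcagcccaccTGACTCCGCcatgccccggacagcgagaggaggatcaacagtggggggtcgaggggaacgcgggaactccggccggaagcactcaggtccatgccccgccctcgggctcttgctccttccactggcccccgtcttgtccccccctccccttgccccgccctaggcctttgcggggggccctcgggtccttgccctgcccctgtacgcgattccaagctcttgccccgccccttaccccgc
Gclm, chr3:122245307-122245556, plus strand: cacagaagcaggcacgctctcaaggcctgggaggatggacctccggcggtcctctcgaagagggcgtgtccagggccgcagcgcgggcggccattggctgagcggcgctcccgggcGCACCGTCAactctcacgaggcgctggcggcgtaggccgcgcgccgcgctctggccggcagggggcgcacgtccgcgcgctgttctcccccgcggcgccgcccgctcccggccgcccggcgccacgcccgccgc
Txnrd1, chr10:82858956-82859205, plus strand, the second of 3 annotated starts and inside the gene's span: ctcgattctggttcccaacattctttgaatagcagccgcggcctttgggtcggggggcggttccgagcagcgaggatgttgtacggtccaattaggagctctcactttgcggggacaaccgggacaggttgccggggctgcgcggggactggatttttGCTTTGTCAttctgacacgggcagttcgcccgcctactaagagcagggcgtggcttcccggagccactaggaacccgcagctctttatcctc

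In Nfe2l2 the match began 240 bases before the start and read as TGACTCCGC. The matches of Gclm (134 bases before the start) and Txnrd1 (92 bases before it) lay in the reverse orientation. Srxn1 held its match 28 bases after the start, in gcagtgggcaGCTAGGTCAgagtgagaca (chr2:152105542-152105570, plus strand). No match was found in these windows of Slc7a11, Nqo1 and Keap1, nor in the other 2 windows of Txnrd1. A match describes letters and not binding. In the GENCODE annotation of GRCm38 (mm10), the genes lie at chr2:75675513-75704641 (Nfe2l2, minus strand), chr2:152105516-152111376 (Srxn1), chr3:49892526-50443614 (Slc7a11, minus), chr3:122245557-122270732 (Gclm), chr8:33652523-33698163 (Gsr), chr8:75093621-75100589 (Hmox1), chr8:107388225-107403206 (Nqo1, minus), chr9:21229730-21239361 (Keap1, minus), chr9:77754535-77794485 (Gclc) and chr10:82833951-82897712 (Txnrd1). The annotation places a gene on the opposite strand over part of Slc7a11, Gclm, Keap1 and Txnrd1. On the same strand, Eid3 overlaps Txnrd1, Gm37692 and Gm37498 overlap Slc7a11, Gm6061 overlaps Gclm, Gm24996 overlaps Nfe2l2 and Gm24727 overlaps Gsr. Whether counting used strand, and how reads shared by same-strand genes were assigned, are not given in the sources used here. Reads of such pairs therefore cannot be told apart.

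Levels are given in FPM, as the table is named, although a sample label calls the values fpkm. They were whole multiples of 1 step per library whatever the gene, as read counts divided by a size factor are. They were therefore taken as not corrected for gene length, and levels of single genes are compared only within a gene. Sums over a marker list give longer and more abundant genes more weight, and each is compared only between libraries. Recovered depth was 38416702 to 68788327 reads a library, and the members had 349 to 31570 reads each in every library. Control cells had at most 12 reads of Myod1 and 22 of Myog in any library, and Pax7 had at most 8 reads in any library of the 6 groups, while Myf5 ranged from 20.0 to 125 FPM. The summed level of 12 myotube markers was at most 18.1 FPM in Control DM3, 191 to 1029 FPM in MUNC spliced DM3 and 68.4 to 131 FPM in MUNC genomic DM3, and Control DM3 was not above the 12.6 to 32.0 FPM of Control GM. Differentiation below therefore names only the change of medium from GM to DM3, which in Control cells came without a rise of this sum. MUNC spliced DM3 replicate 1 stood apart from its group, with 1029 FPM of myotube markers against 191 and 248 FPM, and 1227 FPM of 10 cell cycle markers against 303 and 334 FPM. Macrophage markers summed to at most 6.35 FPM in any library. Endothelial markers summed to 7.14 to 7.64 FPM in MUNC genomic GM and 4.07 to 5.40 FPM in MUNC genomic DM3. Their sums were 0.256 to 0.761 FPM and 0.384 to 0.671 FPM in Control GM and DM3. In MUNC spliced GM and DM3 they were 0.917 to 1.72 FPM and 1.24 to 1.63 FPM. The 8 fibroblast and mesenchymal markers summed to 5206 to 7671 FPM in Control GM and 5679 to 6636 FPM in Control DM3, 8926 to 14034 FPM and 10920 to 12345 FPM in MUNC spliced GM and DM3, and 4791 to 9362 FPM and 5464 to 6197 FPM in MUNC genomic GM and DM3. Adipocyte markers summed to at most 11.2 FPM in Control libraries and to 14.6 to 27.2 FPM in the MUNC lines. In bulk RNA, fewer cells of a type and less RNA per cell cannot be told apart.

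**Figure D1:**
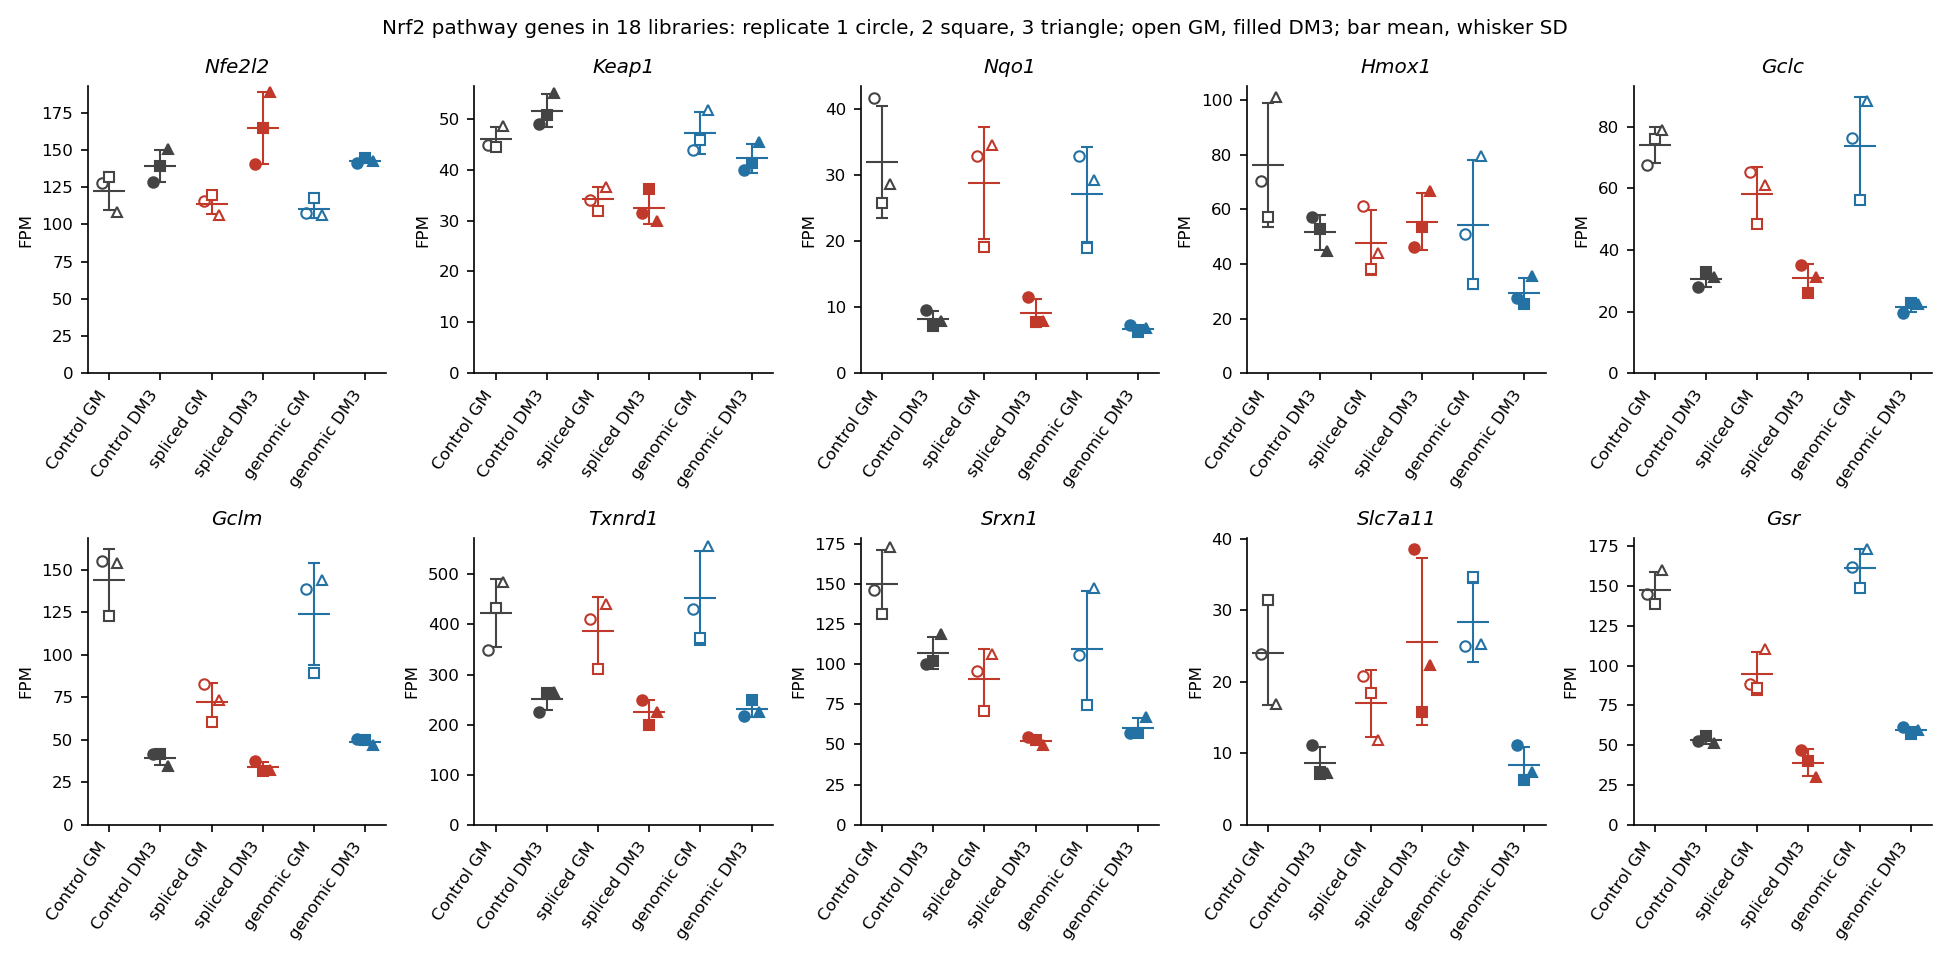
Level of each of the 10 genes in FPM (y axis, from 0) in the 6 groups (x axis), with 1 point a library, a bar for the mean and whiskers for the SD (n = 3). Nqo1, Gclc, Gclm, Txnrd1 and Gsr were higher in every GM library than in any DM3 library, and MUNC spliced DM3 replicate 1 had the highest Slc7a11, at 38.5 FPM.

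The first comparison was Control DM3 against Control GM, the change of medium in the line labelled wild-type. Serum level, serum species and time differed together, with GM taken at subconfluence, and their parts cannot be told apart. Of the 10 genes 7 fell and none rose, and all 7 encode enzymes or a transporter of the antioxidant response, while Hmox1, Nfe2l2 and Keap1 did not pass the test. The median change of the 10 genes was -0.99 on the log2 scale, against 0.02 over all 13869 genes tested. In this comparison 58.2% of all genes were called, 29.6% higher and 28.6% lower. The groups did not overlap for 8 of the 10 genes, against 62.4% of all genes. Cell cycle markers, whose 10 genes all fell, summed to 3239 to 3736 FPM in GM and 271 to 504 FPM in DM3. Muscle progenitor markers rose in 5 of 8 tested and interferon-stimulated genes in 10 of 10. The part of these genes in the result was not tested.

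Among the regulators, Nfe2l2 was at 128, 132 and 108 FPM in the 3 Control GM libraries and at 128, 139 and 150.4 FPM in Control DM3. The 2 groups overlapped, with a log2 difference of 0.18 (SE 0.11, adjusted p = 0.155) and a 95% interval of -0.04 to 0.41. Keap1 was at 44.8, 44.5 and 48.7 FPM in GM and 49.0, 50.7 and 55.1 FPM in DM3. Every DM3 library was above every GM library, yet the difference of 0.16 (SE 0.10, adjusted p = 0.178) did not pass.

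All 4 genes of glutathione supply fell. Gclm, the modifier subunit of glutamate-cysteine ligase, which makes the first and limiting step of glutathione synthesis, was at 155, 123 and 154 FPM in Control GM and 41.7, 41.7 and 34.8 FPM in DM3. Its groups were far apart, 3.65-fold lower in DM3, with a log2 change of -1.84 (SE 0.16, adjusted p = 3.15e-07). Gclc, the catalytic subunit of the same enzyme, was at 67.8, 75.9 and 79.0 FPM in GM and 27.9, 33.0 and 31.2 FPM in DM3, with no overlap, and fell by 1.25 on the log2 scale (SE 0.16, adjusted p = 6.58e-06). Gsr, which reduces oxidized glutathione with NADPH, was at 145, 139 and 159.9 FPM in GM and 52.8, 55.9 and 51.1 FPM in DM3. The lowest GM library was far above the highest DM3 library, a log2 change of -1.45 (SE 0.13, adjusted p = 4.30e-07). Slc7a11, the subunit of the cystine importer that brings in the precursor, was at 23.9, 31.4 and 16.9 FPM in GM and 11.2, 7.42 and 7.28 FPM in DM3. It varied more between GM libraries than the other 3, but again without overlap, and changed by -1.36 (SE 0.31, adjusted p = 0.00122).

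In the thioredoxin branch, Txnrd1, the cytosolic thioredoxin reductase, was at 349.9, 432 and 485 FPM in Control GM and 226, 262 and 265 FPM in DM3. The highest DM3 library stayed below the lowest GM library, with a log2 change of -0.74 (SE 0.16, adjusted p = 0.000983). Srxn1, sulfiredoxin, which repairs overoxidized peroxiredoxins, was at 146, 131 and 173 FPM in GM and 99.9, 102 and 119 FPM in DM3. Its change of -0.48 (SE 0.19, adjusted p = 0.0425) was near the threshold and was lost without Control GM replicate 1 or 3 or Control DM3 replicate 1 or 2 (adjusted p 0.0754 to 0.155), with no filter on low values (0.0828) and with libraries scaled to equal sums (0.0513). Nqo1, a quinone reductase often read as the marker of Nrf2 activity, was at 41.7, 25.8 and 28.6 FPM in GM and 9.60, 7.20 and 7.94 FPM in DM3. It was 3.89-fold lower in DM3, the groups far apart (log2 -1.82, SE 0.24, adjusted p = 1.13e-05). Hmox1, heme oxygenase, was at 70.3, 57.3 and 101 FPM in GM and 57.3, 52.9 and 44.6 FPM in DM3. The highest DM3 library just exceeded the lowest GM library, and the change of -0.52 (SE 0.27, adjusted p = 0.110) did not pass, whereas the authors' deposited table gave Hmox1 a log2 fold change of -0.59 with an adjusted p of 0.0222.

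**Figure D2:**
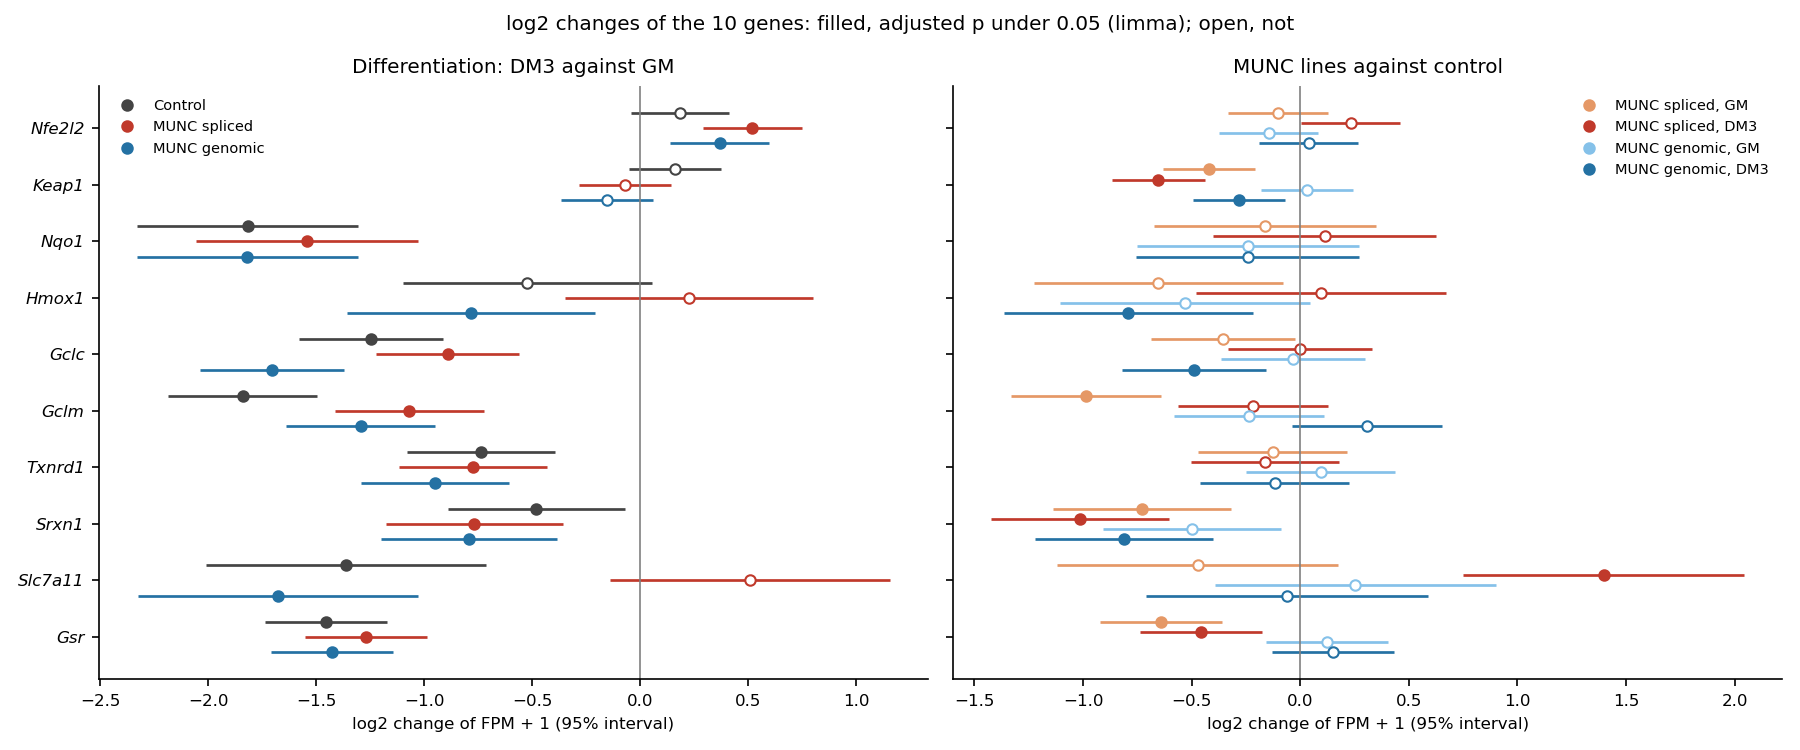
Difference on the log2(FPM + 1) scale with its 95% interval (x axis) for each of the 10 genes (y axis), for DM3 against GM in 3 lines (left) and for the MUNC lines against control in each medium (right). Filled points passed an adjusted p of 0.05 in limma; Nqo1, Gclc, Gclm, Txnrd1, Srxn1 and Gsr are filled and left of 0 in all 3 lines on the left.

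Both MUNC lines were then followed from GM to DM3 on their own. In MUNC spliced cells 1 of the 10 genes rose and 6 fell (35.6% of all genes called, 17.2% higher and 18.4% lower), and in MUNC genomic cells 1 rose and 8 fell (51.4% called, 26.3% higher and 25.1% lower). The members' median changes were -0.77 and -1.12, against -0.01 and 0.02 over all genes. The GM and DM3 libraries were fully apart for 7 and 8 members, as for 44.6% and 62.8% of all genes. The count in MUNC spliced cells was again 7 genes without replicate 1 of DM3. In both lines all 10 cell cycle markers fell, from 2074 to 2662 FPM summed in MUNC spliced GM to 303 to 1227 FPM in DM3, and from 3060 to 3354 FPM in MUNC genomic GM to 344 to 414 FPM in DM3. Myotube markers rose in 9 of 9 tested in MUNC spliced cells (median 3.08) and in 8 of 9 in MUNC genomic cells (median 2.09). Muscle progenitor markers rose in 2 and 7 of 8, and interferon-stimulated genes in 10 and 3 of 10. The part of these genes was not tested.

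The gene that rose in each line was Nfe2l2 itself. It was at 116, 119.6 and 107 FPM in MUNC spliced GM and 141, 165 and 189 FPM in DM3, every DM3 library above every GM library (log2 0.52, SE 0.11, adjusted p = 0.00162). In MUNC genomic cells it was at 108, 118 and 106 FPM in GM and 141, 144 and 143 FPM in DM3, a smaller rise without overlap (log2 0.37, SE 0.11, adjusted p = 0.00937). The rise in the MUNC lines was not shown to differ from the control: the interactions were 0.33 (SE 0.15, adjusted p = 0.148) for MUNC spliced and 0.18 (SE 0.15, adjusted p = 0.525) for MUNC genomic cells. Keap1 passed in neither line, with -0.07 (95% interval -0.28 to 0.14) and -0.15 (-0.37 to 0.06).

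The enzyme genes Nqo1, Gclc, Gclm, Txnrd1, Srxn1 and Gsr fell in both MUNC lines as in the control. In MUNC spliced cells Nqo1 was at 33.0, 19.1 and 34.5 FPM in GM and 11.5, 7.72 and 7.99 FPM in DM3, all DM3 libraries lower (log2 -1.54, SE 0.24, adjusted p = 0.000194). In MUNC genomic cells Nqo1 was at 32.9, 19.0 and 29.3 FPM in GM and 7.26, 6.28 and 6.81 FPM in DM3 (log2 -1.82, SE 0.24, adjusted p = 1.65e-05). Gclc went from 76.3, 56.4 and 88.3 FPM in MUNC genomic GM to 19.5, 22.8 and 22.5 FPM in DM3, 3.41-fold lower, and from 65.2, 48.3 and 61.0 to 35.2, 26.1 and 31.3 FPM in MUNC spliced cells, 1.89-fold lower. The groups of these 6 genes did not overlap in either line, and their log2 changes were -1.07 and -1.29 for Gclm, -0.77 and -0.95 for Txnrd1, -0.77 and -0.79 for Srxn1, and -1.27 and -1.43 for Gsr, spliced first.

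Slc7a11 and Hmox1 fell in MUNC genomic cells and did not pass in MUNC spliced cells, and this difference between the lines was not tested. Slc7a11 was at 25.0, 34.7 and 25.3 FPM in MUNC genomic GM and 11.2, 6.27 and 7.45 FPM in DM3, all DM3 libraries far lower (log2 -1.68, SE 0.31, adjusted p = 0.000279). In MUNC spliced cells it was at 20.8, 18.4 and 11.8 FPM in GM and 38.5, 15.8 and 22.4 FPM in DM3. There the groups overlapped and the difference of 0.51 (SE 0.31, adjusted p = 0.206) did not pass, falling to 0.18 without DM3 replicate 1. Hmox1 was at 51.0, 32.7 and 79.6 FPM in MUNC genomic GM and 27.7, 25.4 and 35.5 FPM in DM3, with 1 GM library inside the DM3 range. Its change of -0.78 (SE 0.27, adjusted p = 0.0234) was lost without GM replicate 1 or 3 or DM3 replicate 1 or 2 (adjusted p 0.0524 to 0.152), fell to -0.47 without GM replicate 3, and was also lost with no filter on low values (0.0547) or with only these groups in the fit (0.0716). In MUNC spliced cells Hmox1 was at 61.1, 38.2 and 43.9 FPM in GM and 46.3, 53.6 and 66.6 FPM in DM3, overlapping (log2 0.23, SE 0.27, adjusted p = 0.545).

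The next comparison set MUNC spliced against Control in GM. None of the 10 genes was higher and 4 were lower, where 35.5% of all genes were called, 18.2% higher and 17.3% lower. The median of the 10 genes was -0.45, against -0.02 over all genes, and 5 of them did not overlap, against 43.6% of all genes. Of the genes called over the whole table, 51.3% were higher, and 66.1% when libraries were scaled to equal sums. Cell cycle markers summed to 2074 to 2662 FPM in MUNC spliced GM and 3239 to 3736 FPM in Control GM, with 1 of 10 called lower. Myotube markers were higher in 5 of 9 tested (median 1.01) and fibroblast and mesenchymal markers in 3 of 5 (median 0.80), and interferon-stimulated genes were lower in 8 of 10 (median -1.92). The part of these genes in the result was not tested.

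Keap1 was at 34.0, 31.9 and 36.6 FPM in MUNC spliced GM against 44.8, 44.5 and 48.7 FPM in Control GM, all 3 libraries lower (log2 -0.42, SE 0.10, adjusted p = 0.00417). Gclm, at 83.0, 60.5 and 73.6 FPM against 155, 123 and 154 FPM, was 1.99-fold lower with no overlap (log2 -0.99, SE 0.16, adjusted p = 0.000224). Gsr, at 88.3, 85.8 and 110.5 FPM, was also below every Control library (log2 -0.64, SE 0.13, adjusted p = 0.00150). Srxn1, at 95.8, 70.6 and 106 FPM, did not overlap with Control either (log2 -0.73, SE 0.19, adjusted p = 0.00823), and missed the threshold without MUNC spliced GM replicate 2 (adjusted p = 0.0515). Hmox1, at 61.1, 38.2 and 43.9 FPM against 70.3, 57.3 and 101 FPM, overlapped with Control and gave -0.65 (SE 0.27, adjusted p = 0.0715). It passed with the replicate number as a block (0.0293), in DESeq2 (0.0439), and without Control GM replicate 2 or MUNC spliced GM replicate 1 (0.0414 and 0.0419). Nfe2l2 differed by -0.10 (95% interval -0.33 to 0.13) and Nqo1 by -0.16 (-0.67 to 0.35), neither past the threshold.

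MUNC genomic cells in GM were compared with the same Control GM libraries. None of the 10 genes was called, where 26.8% of all genes were (12.2% higher and 14.5% lower), and the 2 groups overlapped for all 10, whereas 37.9% of all genes did not overlap. At an unadjusted p under 0.05, limma, edgeR and DESeq2 each had 1 member, and edgeR and DESeq2 also called none after adjustment. The members' median difference was -0.09, against -0.03 over all genes. That unadjusted gene was Srxn1 in limma, at 106, 74.8 and 147 FPM against 146, 131 and 173 FPM. Its difference of -0.50 (SE 0.19, adjusted p = 0.0674) passed with the replicate number as a block (adjusted p = 0.0128). Without MUNC genomic GM replicate 3, Srxn1 (-0.74, adjusted p = 0.00566) and Hmox1 (-0.85, adjusted p = 0.0222) both passed. Of all called genes 45.6% were higher, and 56.2% with libraries scaled to equal sums. Interferon-stimulated genes were lower here in 8 of 10.

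In DM3, MUNC spliced against Control gave 1 member higher and 3 lower (43.3% of all genes called, 22.3% higher and 21.0% lower). The members' median was -0.08, against 0.01 over all genes, and 4 of the 10 did not overlap, against 53.0% of all genes. Myotube markers moved with this comparison, with 9 of 9 tested called higher, and so did fibroblast and mesenchymal markers, with 3 of 5 higher. Cell cycle markers were higher in 3 of 10, near the share of all genes. Their sum was above the 271 to 504 FPM of Control DM3 only in MUNC spliced DM3 replicate 1, at 1227 FPM against 303 and 334 FPM in the others. The part of these markers was not tested. Slc7a11 was the gene that was higher. It was at 38.5, 15.8 and 22.4 FPM in MUNC spliced DM3 and 11.2, 7.42 and 7.28 FPM in Control DM3, every MUNC spliced library above every Control library, 2.96-fold on the means. The log2 difference was 1.40 (SE 0.31, adjusted p = 0.00157), and 1.07 (adjusted p = 0.00966) without MUNC spliced DM3 replicate 1, the library that stood apart.

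Keap1 was lower by this comparison as well, at 31.4, 36.1 and 30.0 FPM against 49.0, 50.7 and 55.1 FPM, without overlap (log2 -0.65, SE 0.10, adjusted p = 7.36e-05). Srxn1 was at 54.7, 52.6 and 49.5 FPM against 99.9, 102 and 119 FPM, 2.04-fold lower (log2 -1.02, SE 0.19, adjusted p = 0.000510). For Gsr the values were 46.8, 40.4 and 30.2 FPM against 52.8, 55.9 and 51.1 FPM, again lower in all 3 libraries. Its difference of -0.46 (SE 0.13, adjusted p = 0.0110) fell to -0.29 (adjusted p = 0.0655) without MUNC spliced DM3 replicate 3 and was also lost with only these groups in the fit (0.0555). The authors' deposited table gave Gsr a log2 fold change of -0.45 with an adjusted p of 0.0590. Nfe2l2 was at 141, 165 and 189 FPM against 128, 139 and 150.4 FPM, overlapping. Its difference of 0.23 (SE 0.11, adjusted p = 0.0927) passed without MUNC spliced DM3 replicate 1 (0.34, adjusted p = 0.0199) and after quantile normalization (0.0436), so the count was 5 of 10 without that library.

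MUNC genomic against Control in DM3, which shares the Control libraries with the comparison before, had 4 members lower and none higher (40.3% of all genes called, 19.3% higher and 20.9% lower). The median was -0.18, against -0.01 over all genes, and 6 of the 10 did not overlap, against 56.9% of all genes. Myotube markers were higher here too, in 9 of 9 tested, and 1 of 10 cell cycle markers was, while interferon-stimulated genes were lower in 10 of 10; their part was not tested. Srxn1 was at 57.2, 57.1 and 67.3 FPM against 99.9, 102 and 119 FPM, 1.77-fold lower without overlap (log2 -0.81, SE 0.19, adjusted p = 0.00313). Hmox1 was at 27.7, 25.4 and 35.5 FPM against 57.3, 52.9 and 44.6 FPM, all MUNC genomic libraries lower (log2 -0.79, SE 0.27, adjusted p = 0.0283). Gclc was at 19.5, 22.8 and 22.5 FPM against 27.9, 33.0 and 31.2 FPM (log2 -0.49, SE 0.16, adjusted p = 0.0198), and Keap1 at 40.0, 41.2 and 45.5 FPM against 49.0, 50.7 and 55.1 FPM (log2 -0.28, SE 0.10, adjusted p = 0.0334), both without overlap.

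These 3 smaller differences depended on single libraries. Between 1 and 4 of the 10 genes were called when 1 library was left out: 1 without Control DM3 replicate 2 or MUNC genomic DM3 replicate 1, and 2 without Control DM3 replicate 3 or MUNC genomic DM3 replicate 2. Hmox1 was lost without Control DM3 replicate 1 or 2 or MUNC genomic DM3 replicate 1 or 2 (adjusted p 0.0738 to 0.0984), Keap1 without Control DM3 replicate 2 or 3 or MUNC genomic DM3 replicate 1 or 2 (0.0668 to 0.123), and Gclc without Control DM3 replicate 2 or 3 or MUNC genomic DM3 replicate 1 (0.0537 to 0.0805). Hmox1 also missed with no filter on low values (0.0615), and Keap1 with equal sums (0.0532) and quantile normalization (0.0547). Gclm, at 50.2, 49.6 and 46.8 FPM against 41.7, 41.7 and 34.8 FPM, did not overlap but did not pass (log2 0.31, SE 0.16, adjusted p = 0.146); it passed with only these groups in the fit (0.0321), and the authors' deposited table gave it an adjusted p of 0.0241.

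The 2 MUNC lines were also compared with each other. In GM, 3 members were lower in MUNC spliced cells and none higher (35.8% of all genes called, 19.9% higher and 16.0% lower), and 4 of the 10 did not overlap (45.7% of all genes). Myotube markers were higher in 4 of 9 tested and fibroblast and mesenchymal markers in 3 of 5, with 1 lower; their part was not tested. The lower members were Keap1 (log2 -0.45, SE 0.10, adjusted p = 0.00222), Gclm (log2 -0.75, SE 0.16, adjusted p = 0.00189) and Gsr (log2 -0.76, SE 0.13, adjusted p = 0.000297). Slc7a11, at 20.8, 18.4 and 11.8 FPM in MUNC spliced and 25.0, 34.7 and 25.3 FPM in MUNC genomic GM, did not overlap and gave -0.73 (SE 0.31, adjusted p = 0.0750). It passed with the replicate block (0.0326) and in DESeq2 (0.0442). Without MUNC genomic GM replicate 2, 5 members were called, with Gclc (-0.50, adjusted p = 0.0184) and Srxn1 (-0.47, adjusted p = 0.0486) added.

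In DM3, 3 members were higher and 3 lower in MUNC spliced cells when set against MUNC genomic cells (44.2% of all genes called, 23.4% higher and 20.8% lower), and 8 of the 10 did not overlap (57.2% of all genes). In the same comparison myotube markers were higher in 7 of 9 tested (median 2.00), fibroblast and mesenchymal markers higher in 3 of 5 and lower in 1 (median 1.04), and interferon-stimulated genes higher in 10 of 10 (median 5.27); their part was not tested. Higher were Slc7a11 (log2 1.46, SE 0.31, adjusted p = 0.00102), Hmox1 (log2 0.89, SE 0.27, adjusted p = 0.0142) and Gclc (log2 0.49, SE 0.16, adjusted p = 0.0182). Lower were Gsr (log2 -0.61, SE 0.13, adjusted p = 0.00145), Gclm (log2 -0.52, SE 0.16, adjusted p = 0.0155) and Keap1 (log2 -0.37, SE 0.10, adjusted p = 0.00674). Of these, Gclc was lost without replicate 1 of either line (adjusted p 0.0745 and 0.0787), Hmox1 without MUNC spliced replicate 3 or MUNC genomic replicate 2 (0.0605 and 0.0565) and Gclm without MUNC spliced replicate 2 (0.0507), while Nfe2l2 passed without MUNC spliced replicate 1 (0.30, adjusted p = 0.0352). The 2 subunits of glutamate-cysteine ligase thus lay on opposite sides, with Gclc at 35.2, 26.1 and 31.3 FPM in MUNC spliced against 19.5, 22.8 and 22.5 FPM in MUNC genomic DM3, and Gclm at 37.3, 31.9 and 32.0 FPM against 50.2, 49.6 and 46.8 FPM.

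Whether the members changed from GM to DM3 by a different amount in a MUNC line was tested as an interaction. It is the log2 change from GM to DM3 in that line minus the change in Control, where summed myotube markers did not rise. For MUNC spliced cells 2 members had a positive interaction and none a negative one (14.4% of all genes called, 7.43% positive and 6.94% negative). Of all called genes 51.7% were positive, 41.4% with libraries scaled to equal sums and 62.1% in edgeR. Interactions were also positive for 7 of 9 tested myotube markers and 3 of 10 cell cycle markers, whose part was not tested. Slc7a11 fell by 1.36 in Control and did not pass in MUNC spliced cells, with an interaction of 1.87 (SE 0.43, adjusted p = 0.0110), and 1.54 (adjusted p = 0.0238) without MUNC spliced DM3 replicate 1. Gclm fell less in MUNC spliced cells, from a lower GM level, with an interaction of 0.77 (SE 0.23, adjusted p = 0.0361). It was lost without any 1 of 6 libraries (Control GM replicates 1 and 3, Control DM3 replicates 2 and 3, MUNC spliced GM replicate 2, MUNC spliced DM3 replicate 1; adjusted p 0.0579 to 0.0975), with no filter on low values (0.0665) and after quantile normalization (0.051). For MUNC genomic cells no member was called (8.81% of all genes called, 3.56% positive and 5.25% negative) by limma, edgeR or DESeq2. At an unadjusted p under 0.05 there were 2 members in limma (Gclm at 0.54 and Keap1 at -0.32), 1 in edgeR and 3 in DESeq2.

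Slc7a11 is also a known target of Atf4, the transcription factor of the amino acid response, so a list of 12 Atf4 stress genes was read beside it. In Control DM3 against GM 2 of the 12 rose, Ddit3 among them (log2 1.93), and 6 fell, beside 29.6% and 28.6% of all genes. Among those that fell were the serine enzymes Psat1 (log2 -1.98, SE 0.16, adjusted p = 1.86e-07) and Phgdh (log2 -1.71, SE 0.17, adjusted p = 7.02e-07). The asparagine synthetase Asns (log2 -1.37, SE 0.17, adjusted p = 5.12e-06) and Atf4 itself (log2 -0.77, SE 0.11, adjusted p = 2.77e-05) fell as well. In MUNC spliced GM against Control GM 7 were lower and none higher, beside 17.3% and 18.2% of all genes. Cth, which makes cysteine, was at the bottom (log2 -2.20, SE 0.43, adjusted p = 0.000887). In MUNC spliced DM3 against GM 5 rose and none fell, beside 17.2% and 18.4% of all genes. Between 4 and 9 were called when 1 library was left out (9 without MUNC spliced DM3 replicate 2). The interaction for MUNC spliced cells was positive in 8 of 12 and negative in none, beside 7.43% and 6.94% of all genes. Its median was 1.46 against 0.00 over all genes, and 8 were called without MUNC spliced DM3 replicate 1. For MUNC genomic cells the interaction was called in none of the 12 by limma, and in 1 with the replicate block. The part of Atf4 in the changes of Slc7a11 was not tested.

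**Figure D3:**
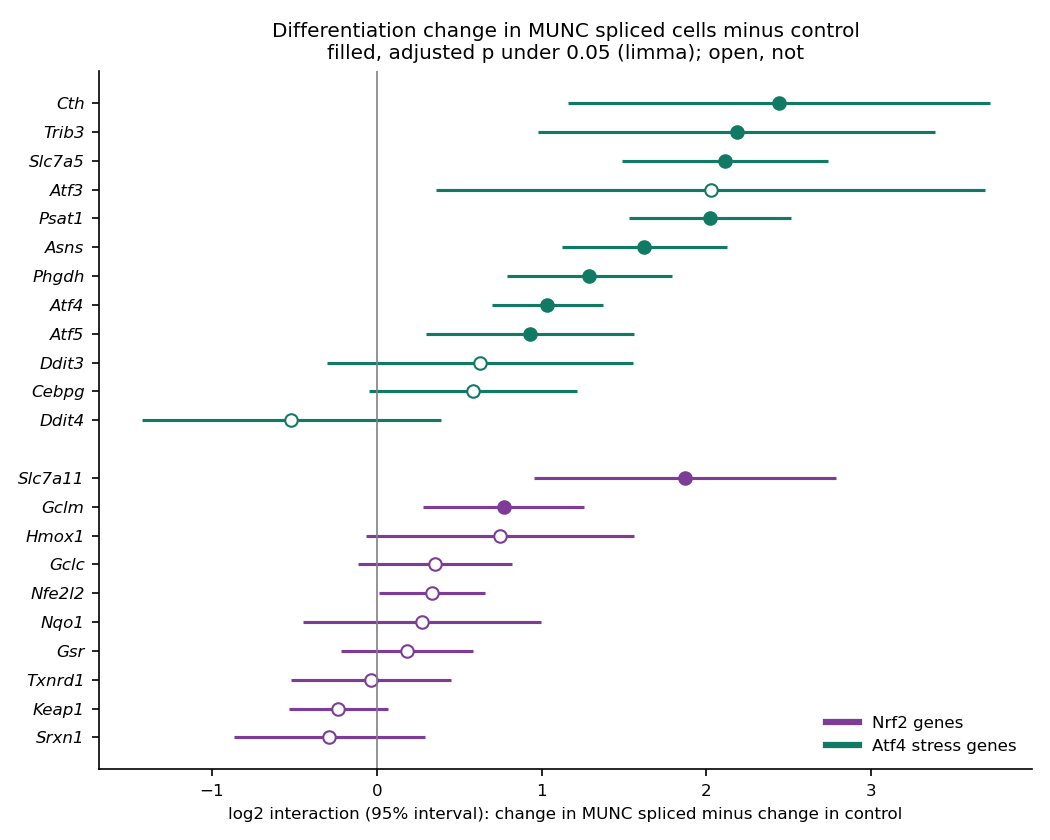
Interaction for MUNC spliced cells on the log2 scale with its 95% interval (x axis), for the 10 members (purple) and 12 Atf4 stress genes (green) on the y axis; filled points passed an adjusted p of 0.05 in limma. Slc7a11 is at 1.87, and the other members lie between -0.29 and 0.77.

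Other genes around the pathway were read from 7 lists taken by function, 95 genes tested in all, with those named beside the highest and lowest chosen after their values were seen. In Control DM3 against GM, 21 of the 95 were higher (22.1%) and 34 lower (35.8%), beside 29.6% and 28.6% of all genes. The 14 genes of Nrf2 control had 4 higher and 2 lower, where 58.2% of all genes were called. Higher were Nfe2l1, a relative of Nrf2 (log2 0.77, SE 0.14, adjusted p = 0.000257), the repressor Bach1 (log2 0.67, SE 0.11, adjusted p = 0.000110) and the ligase adaptors Btrc (0.47) and Fbxw11 (0.32), and lower were Cul3 (log2 -0.41, SE 0.11, adjusted p = 0.00452) and Rbx1 (-0.49), parts of the ligase that Keap1 serves. Of 6 NADPH-supplying genes 5 fell and none rose, with Pgd (log2 -0.90, SE 0.12, adjusted p = 1.00e-05) and G6pdx (log2 -0.66, SE 0.12, adjusted p = 0.000157) of the pentose phosphate pathway among them, a median of -0.55. Of 18 thioredoxin, peroxide and superoxide genes 9 fell and 3 rose. Txn1, the substrate of Txnrd1, fell to 239 ± 48.3 FPM from 620.1 ± 103 FPM (SD, n = 3), and Prdx3, a mitochondrial peroxidase, changed by -1.15 (SE 0.10, adjusted p = 3.77e-07). Txnip, which binds and inhibits thioredoxin, rose to 539 ± 144 FPM from 17.4 ± 15.6 FPM, a log2 change of 5.17 (SE 0.47, adjusted p = 4.17e-07).

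The remaining lists moved both ways in Control cells, where 29.6% of all genes were called higher and 28.6% lower. Glutathione genes had 5 higher and 5 lower of 22 tested, with Gsto1 (-0.96) and the glutathione synthetase Gss (-0.83) lower and Gstt1 (1.63) higher, and 6 in all were called without Control DM3 replicate 2. Detoxification and export genes had 4 higher and 4 lower of 13, with 5 in all without Control GM replicate 1. Heme and iron genes had 3 higher and 3 lower of 10, with Tfrc, the transferrin receptor, at -3.08 (SE 0.35, adjusted p = 2.78e-06) and Slc40a1, the iron exporter, at 2.94 (SE 0.54, adjusted p = 0.000227). Ddit3, an Atf4 stress gene, rose (log2 1.93, SE 0.31, adjusted p = 6.52e-05), while Slc7a5, an amino acid transporter, fell (log2 -1.72, SE 0.21, adjusted p = 4.93e-06). NADPH-supplying genes fell in both MUNC lines too, 5 of 6 in each and none higher, with 3 called in MUNC spliced cells without DM3 replicate 3. Of all genes 18.4% fell in MUNC spliced and 25.1% in MUNC genomic cells.

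**Figure D4:**
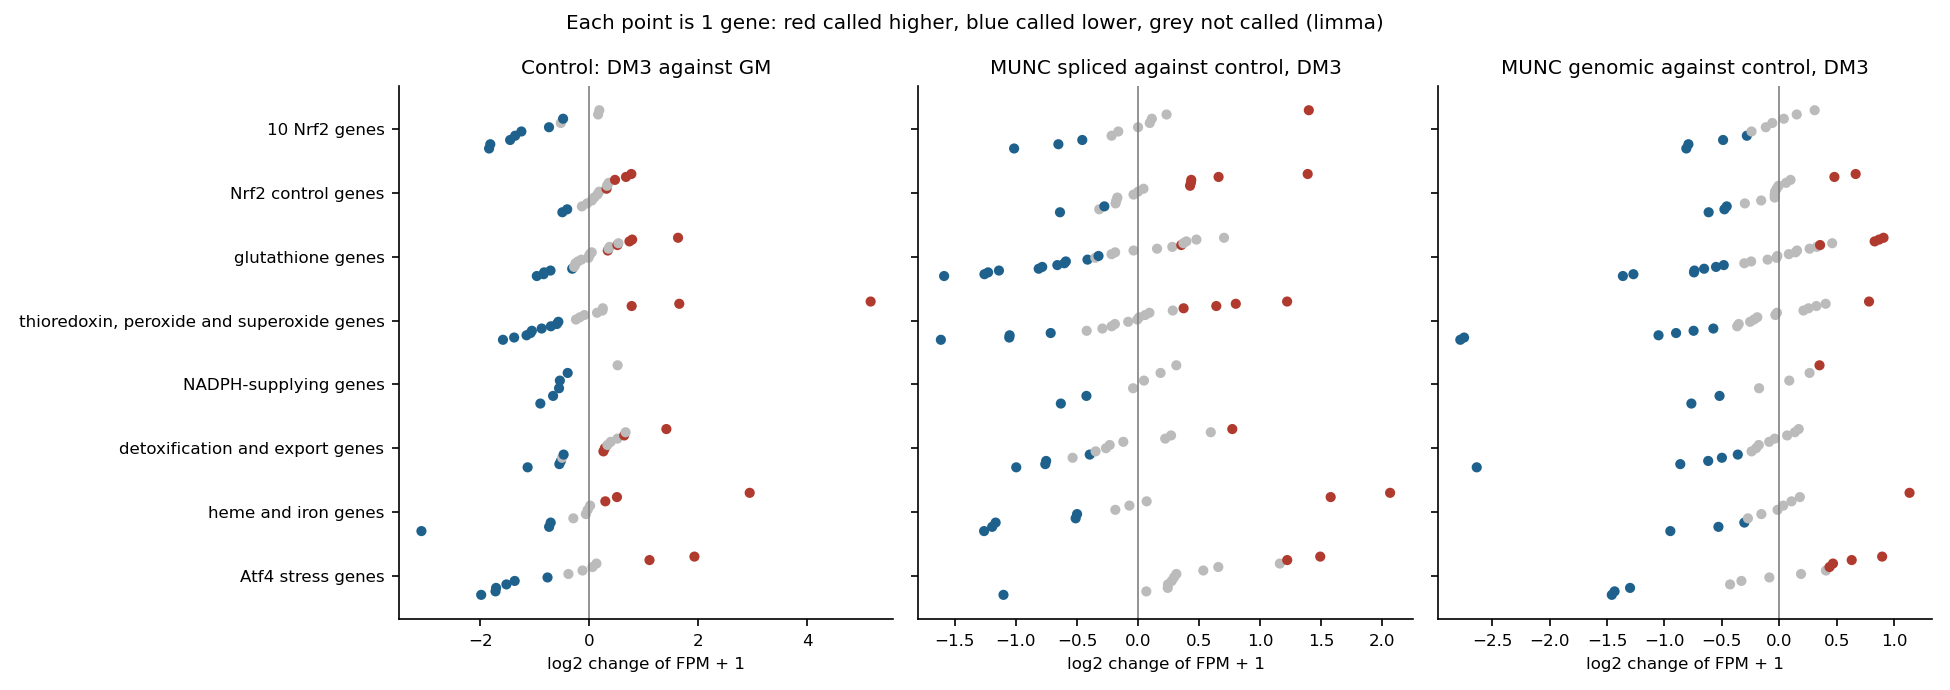
Difference on the log2(FPM + 1) scale (x axis) of every tested gene of the members and the 7 pathway lists (y axis), for Control DM3 against GM and for each MUNC line against Control in DM3, with red for genes called higher, blue for lower and grey for not called. The NADPH-supplying genes lie left of 0 in the first panel but for 1 that was not called, and Txnip is the point farthest right there, at 5.17.

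The 95 pathway genes were also counted against Control. In MUNC spliced GM 10 were higher (10.5%) and 27 lower (28.4%), beside 18.2% and 17.3% of all genes. In MUNC genomic GM 5 were higher (5.3%) and 12 lower (12.6%), beside 12.2% and 14.5% of all genes, so the share of lower genes was near the background. With libraries scaled to equal sums these counts were 12 and 19, and 7 and 8, and with the replicate block MUNC genomic cells had 8 higher and 18 lower. In MUNC spliced DM3 15 were higher (15.8%) and 29 lower (30.5%), beside 22.3% and 21.0% of all genes. In MUNC genomic DM3 13 were higher (13.7%) and 29 lower (30.5%), beside 19.3% and 20.9% of all genes. Beside Cth, the lowest in MUNC spliced GM were Asns (log2 -1.56, SE 0.17, adjusted p = 3.03e-06) and Trib3, a pseudokinase induced by Atf4 (log2 -1.53, SE 0.40, adjusted p = 0.00794). The highest were Slc40a1 (log2 2.20, SE 0.54, adjusted p = 0.00499), the extracellular superoxide dismutase Sod3 (log2 1.52, SE 0.14, adjusted p = 7.84e-07) and Sesn1, a p53 target of the sestrin family (log2 1.12, SE 0.24, adjusted p = 0.00176). Slc40a1 and Trib3 varied widely between libraries. Slc40a1 was at 60.5 ± 52.6 FPM in MUNC spliced GM against 10.8 ± 6.10 FPM in Control GM (SD, n = 3). Trib3 was at 22.0 ± 5.41 FPM against 74.1 ± 50.7 FPM.

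Sod3 went the other way in MUNC genomic cells, at 0.171 ± 0.0536 FPM in GM against 6.45 ± 1.28 FPM in Control (SD, n = 3), and 0.189 ± 0.0499 FPM against 7.18 ± 0.757 FPM in DM3. The carbonyl reductase Cbr1 was also lower there, at 2.19 ± 0.459 FPM against 12.3 ± 1.53 FPM in GM (log2 -2.06, SE 0.18, adjusted p = 2.25e-07) and 1.86 ± 0.702 FPM against 16.4 ± 0.718 FPM in DM3 (log2 -2.64, SE 0.18, adjusted p = 6.38e-09). Higher in MUNC genomic GM were Mgst2 (log2 1.29, SE 0.14, adjusted p = 1.92e-06), a microsomal glutathione transferase, Psat1 (0.53) and the exporter Abcc5 (0.46). Of the 18 thioredoxin, peroxide and superoxide genes 4 were lower and none higher in MUNC genomic GM, beside 14.5% and 12.2% of all genes. Called were 2 without MUNC genomic GM replicate 1, 2 with equal sums and 8 with the replicate block.

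In DM3 both MUNC lines had less Txnip than Control, which was at 539 ± 144 FPM, with 174 ± 34.0 FPM in MUNC spliced cells (log2 -1.61, SE 0.47, adjusted p = 0.0111) and 81.2 ± 28.0 FPM in MUNC genomic cells (log2 -2.75, SE 0.47, adjusted p = 0.000202). Both had more Tfrc, with log2 differences of 2.06 (SE 0.35, adjusted p = 0.000193) in MUNC spliced and 1.13 (SE 0.35, adjusted p = 0.0167) in MUNC genomic cells. Slc7a5 was higher in both as well, by 1.49 (SE 0.21, adjusted p = 3.07e-05) and 0.90 (SE 0.21, adjusted p = 0.00269). MUNC spliced DM3 also had more Slc40a1 (1.58) and less Gstt1 (-1.59) and Ftl1 (-1.26), the ferritin light chain, whose near-identical copies make its counts uncertain. MUNC genomic DM3 had more Txnrd3 (0.78). Of 22 glutathione genes 1 was higher and 11 lower in MUNC spliced DM3, beside 22.3% and 21.0% of all genes. In MUNC genomic DM3 4 were higher and 7 lower, beside 19.3% and 20.9% of all genes.

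Same-numbered replicates of the GM groups deviated together over all genes tested, with r of 0.46 to 0.73. In all 3 GM groups replicate 2 was the lowest of its group for Nqo1, Hmox1, Gclm, Srxn1 and Gsr. Of the 10 genes 6, 8 and 7 were lowest in replicate 2 of Control, MUNC spliced and MUNC genomic GM, with median deviations of -0.07, -0.25 and -0.31 on the log2 scale. The share of all genes lowest in replicate 2 was not counted, so these counts are not shown to be particular to the 10 genes. Slc7a11 and Nfe2l2 were the exceptions, lowest in replicate 2 of no GM group. What the replicate number stands for (a day, a passage or a batch) is not given in the sources used here. In DM3 replicate 2 was lowest for 1, 5 and 5 of the 10 genes. Replicate 1 was highest for 3, 7 and 4 of them in Control, MUNC spliced and MUNC genomic DM3. Slc7a11 and Nqo1 were among these in all 3 groups, with Slc7a11 deviating by 0.37, 0.66 and 0.43.

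**Figure D5:**
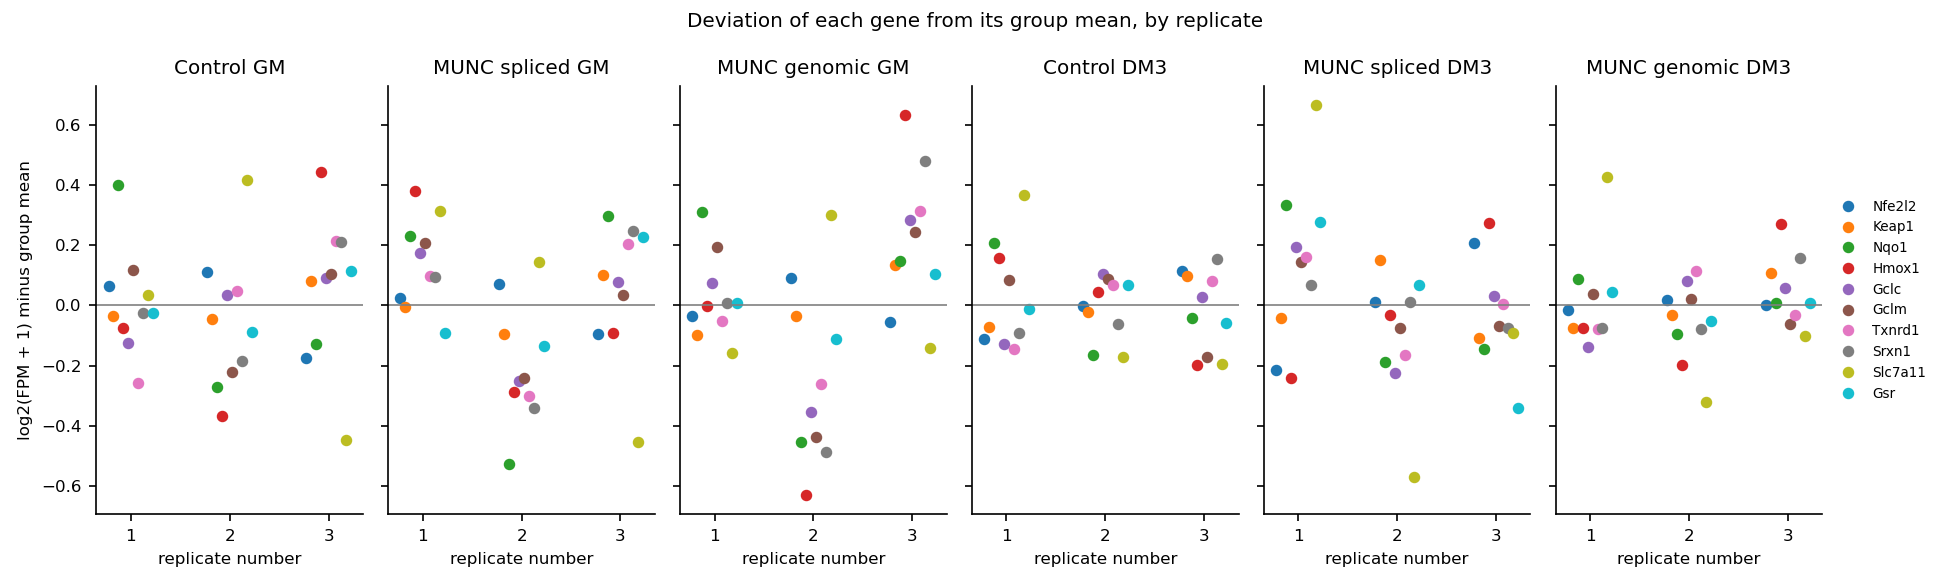
Deviation of each of the 10 genes from its group mean on the log2(FPM + 1) scale (y axis) by replicate number (x axis) in each of the 6 groups. In the GM groups most genes of replicate 2 lie below 0, with Hmox1 at -0.63 in MUNC genomic GM, and Slc7a11 lies above 0 in all 3.

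The levels of the members over the 18 libraries fell into 3 patterns, described here without a test because the libraries share groups and media. For Nqo1, Gclc, Gclm, Txnrd1 and Gsr each GM group had a higher mean than each DM3 group, and no GM library was below a DM3 library. Gclm and Gsr had a Pearson r of 0.96, and 0.47 on deviations from the group means. For Gclc and Txnrd1 these values were 0.95 and 0.90. Nfe2l2 had the reverse order, with its 3 DM3 means above its 3 GM means, though single libraries overlapped, and its r was -0.86 with Gsr, -0.84 with Txnrd1 and -0.79 with Nqo1. On deviations from the group means these were -0.86, -0.42 and -0.49. Srxn1 was higher in every GM than in every DM3 library within each line, but not across lines. Keap1, Hmox1 and Slc7a11 had no order by medium that held within all 3 lines. Keap1 was lowest in both MUNC spliced groups, at 32.5 ± 3.20 FPM (SD, n = 3) in DM3 and 34.2 ± 2.39 FPM (SD, n = 3) in GM, which overlapped with each other, and highest in Control DM3 at 51.6 ± 3.19 FPM (SD, n = 3).

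Across the 18 libraries, the genes most like 4 of the members were taken among 10377 genes averaging at least 5 FPM. Nqo1 was most like Haus1 (r = 0.98), Nap1l1 (0.98) and Kpna2 (0.98), and Slc7a11 most like Psph (0.92), Cpox (0.90) and Oxct1 (0.90). Nfe2l2 was most like Cpe (0.92), 5730455P16Rik (0.90) and Plekhh2 (0.89), and Hmox1 most like Tmem251 (0.89), 3300005D01Rik (0.88) and Zfp35 (0.88). These values describe shared levels over libraries of 6 groups, and the highest of many are shown.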

How the data were processed

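RNA-seq of polyadenylated RNA was read from 18 libraries in 6 groups of 3, with groups taken from sample titles because another label disagreed with the title in 9 libraries. The submitters' processing notes name STAR, HTSeq, DESeq2 and mm10. The deposited signal table holds 1 value per gene and library. Its name gives FPM and a sample label gives fpkm, and how the authors scaled it is not given in the sources used here, so FPM is an inference from the values. All values (100%) were whole multiples of the value of 1 read, within 0.0345 of a whole read, so reads were recovered for the count tests. FPM sums were 946834 to 1048477, and 3 reads were at most 0.0757 FPM. The authors' deposited tables of 5 comparisons give log2 fold changes and p-values, quoted where named; their score columns, also deposited, were not used. No columns of per-sample values were unmapped. Symbols came from these tables.

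Genes with at least 0.5 FPM in at least 3 libraries (13869) were fitted on log2(FPM + 1) with limma 3.58.1 (R 4.3.3), 1 mean for each of 6 groups, empirical Bayes with a trend and 12 residual degrees of freedom. Adjusted p-values are Benjamini-Hochberg over all genes tested, a call is an adjusted p under 0.05, and intervals are 95%. Log2 changes refer to FPM plus 1, so those of weakly expressed genes come out too small. In all, 9 direct comparisons and 2 interactions were made. Alternatives were edgeR 4.0.16, DESeq2 1.42.0, other pseudocounts, filters and scalings, a replicate block and leaving out each library. The fits were tested on simulated data. Replicate numbers were checked by the correlation of same-numbered libraries' deviations from their group means: every pair was over 0.1 in 6 of the 9 direct comparisons (0.17 to 0.73), and the lowest pair in the other 3 was 0.02 to 0.09. In those 6 the numbers were taken to pair the libraries, but the main fit did not use this pairing. It entered only in the alternative fit with a replicate block.

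The members and lists were chosen with earlier results of these data known. Named list genes were, in Control differentiation and in each comparison of a MUNC line with Control, the 3 called genes with the highest and the 3 with the lowest change, among those without overlap and averaging at least 5 FPM in the higher group; others named were chosen after their values were seen. The genes most like 4 members were the 3 with the highest r.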

Additional observations from a re-analysis of the deposited data

Results flagged for a closer look

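For Slc7a11, the cystine importer, the change from GM to DM3 differed between MUNC spliced and Control cells, with an interaction of 1.87 on the log2 scale (95% interval 0.95 to 2.79, limma adjusted p = 0.0110). It passed in each of 12 fits with 1 library left out, with values of 1.54 to 2.16, the lowest without MUNC spliced DM3 replicate 1. For Gclm, the modifier subunit of glutamate-cysteine ligase, the same interaction was 0.77 (95% interval 0.28 to 1.26, limma adjusted p = 0.0361), and it missed the threshold in 6 of 12 such fits.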

How the results depend on the processing

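Requiring a log2 change of at least 1 left 2592 genes in Control differentiation, 1253 in MUNC spliced and 2052 in MUNC genomic differentiation, 1107 and 912 for MUNC spliced and genomic against Control in GM, 1555 and 1544 in DM3, 1264 and 1830 between the MUNC lines in GM and DM3, and 763 and 601 for the interactions, against 8078, 4933, 7127, 4929, 3711, 6001, 5586, 4970, 6135, 1993 and 1222. Members called under it were 3 in MUNC spliced and 5 in MUNC genomic differentiation, 0 for MUNC spliced against Control and against MUNC genomic in GM and for MUNC genomic against Control in DM3, 2 for MUNC spliced against Control in DM3, 1 between the lines in DM3 and 1 for the MUNC spliced interaction. When a fit held the compared groups alone, 3046 genes were called in MUNC spliced differentiation and 1214 in its interaction. For that interaction 1 member was called with no filter on low values and 1 with quantile normalization, and edgeR called 777 genes for the MUNC genomic interaction.

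With the replicate number as a block, 1 member was called in MUNC genomic against Control GM and 3868 and 2265 genes in the 2 interactions; beside Hmox1, Srxn1 and Slc7a11 as given above, the block changed no member's call. In the 3 direct comparisons and the interactions where same-numbered libraries did not all deviate together, the numbers are only shared numbers.

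Signs turned for differences that were not called. With equal sums these were Nfe2l2 (0.011) in MUNC spliced against Control GM, Gclc in MUNC genomic against Control GM (0.034) and MUNC spliced against Control DM3 (0.045), and Gsr in the MUNC genomic interaction (-0.0092). DESeq2 gave Gclc 0.022 and 0.013 in those comparisons, edgeR gave Gclc 0.018 in MUNC spliced DM3, Nfe2l2 -0.0011 between the lines in GM and Txnrd1 0.022 in the MUNC spliced interaction, and quantile normalization gave Txnrd1 0.050 in MUNC spliced against Control GM.

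Leaving out 1 library gave, against Control in GM, Nqo1 -0.31 to 0.10 and Txnrd1 -0.26 to 0.023 for MUNC spliced, and Txnrd1 -0.063 to 0.22, Gclc -0.17 to 0.15 and Keap1 -0.035 to 0.083 for MUNC genomic. In DM3 it gave Gclc -0.10 to 0.11, Hmox1 -0.042 to 0.22 and Nqo1 -0.054 to 0.22 for MUNC spliced, and Nfe2l2 -0.017 to 0.10 and Slc7a11 -0.27 to 0.12 for MUNC genomic. Between the lines it gave Nqo1 -0.15 to 0.34, Hmox1 -0.44 to 0.19 and Srxn1 -0.47 to 0.0093 in GM and Txnrd1 -0.12 to 0.038 in DM3. For the interactions it gave Txnrd1 -0.18 to 0.094 (spliced) and Nqo1 -0.23 to 0.15, Gsr -0.030 to 0.080 and Hmox1 -0.58 to 0.053 (genomic). Members called ranged from 0 to 2 for MUNC genomic against Control GM, 1 to 4 in DM3, 3 to 5 between the lines in GM and 1 to 2 for the MUNC spliced interaction. Genes called ranged from 1063 (without Control DM3 replicate 3) to 2434 for the MUNC spliced interaction and from 784 (without Control DM3 replicate 2) to 1345 for the MUNC genomic one. The cause of these shifts was not tested beyond fewer genes or libraries entering a fit.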

Other observations

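A list of 10 interferon-stimulated genes, among them Ifit1, Isg15 and Mx1, moved in the same libraries, strongly in some comparisons. From GM to DM3 all 10 rose in Control cells (median log2 change 4.67) and in MUNC spliced cells (5.62), and 3 rose in MUNC genomic cells (0.64). Of all genes 29.6%, 17.2% and 26.3% rose there, so the count of 3 was near its share. In DM3 all 10 were lower in MUNC genomic cells than in Control (median -6.70), beside 20.9% of all genes. In MUNC spliced cells 3 were lower, beside 21.0% of all genes. In GM 8 of the 10 were lower than in Control in MUNC spliced cells (median -1.92) and 8 in MUNC genomic cells (median -2.50). Of all genes 17.3% and 14.5% were lower there. The part of the interferon-stimulated genes in the changes of the antioxidant genes was not tested.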
